A study of Gallus gallus with 6 samples.

Results

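SOX9, SNAI2 and FOXD3 are transcription factor genes of the neural crest, and their transcripts were followed here in the dorsal neural folds of 3 chicken embryos. They are 3 of the 24356 annotated genes of the deposited count table and were chosen by their Ensembl identifiers, with the difference between the sides of the embryos already known. The study (Gallus gallus, Leghorn White) sequenced poly(A) RNA from single dorsal neural folds at Hamburger-Hamilton stage 9. Every embryo received 1 mM of a TGFB1 morpholino on one side and 1 mM of the GTBlue-Control morpholino on its opposite side, and each side was dissected for a library of its own. The 6 libraries therefore form 3 pairs, 1 per embryo, with 3 control morpholino sides, labelled wild type, and 3 TGFB1 morpholino sides, labelled TGFB1 knockdown. Morpholinos are antisense oligomers that bind an RNA and stop it from being translated or spliced. The share of cells that took up the morpholino is not given in the sources used here, and the level of TGFB1 itself was not analysed here.

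The neural crest is a population of cells that forms at the border of the neural plate, leaves the dorsal neural tube and gives rise to peripheral neurons and glia, pigment cells and much of the skeleton of the face. SOX9 is a factor of the SOX family with an HMG box as its DNA-binding domain, needed for the survival of neural crest cells and later for cartilage. SNAI2 (Slug) is a zinc finger repressor of the Snail family, known for its part in the epithelial to mesenchymal transition of chick neural crest. FOXD3 is a forkhead factor of premigratory neural crest that keeps cells in an undifferentiated state. TGFB1 is a secreted ligand whose receptors signal through SMAD2 and SMAD3.

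The symbols are those supplied with the list of identifiers, since the deposited table pairs no identifier with a symbol. A RefSeq table of the assembly GRCg7b matched 0 of the 24356 identifiers, but holds 1 gene of each symbol, on the same chromosomes as the deposited rows (18, 2 and 8). In galGal6 coordinates, SOX9 (ENSGALG00000004386.6) spans 8785940 to 8789042 of chromosome 18 (plus strand), with 3 exons and 1832 exonic bases. SNAI2 (ENSGALG00000030902.2) spans 108430041 to 108432260 of chromosome 2 (minus strand), with 4 exon records and 777 bases. FOXD3 (ENSGALG00000042686.2) spans 28132665 to 28133855 of chromosome 8 (plus strand), with 1188 bases. Its 4 exon records are parted by gaps of 1 base, so that they cover nearly the whole span of 1191 bases. The lengths of SNAI2 and FOXD3 divide by 3 and that of SOX9 does not. Whether the annotated exons hold coding sequence only was not examined. Reads outside these annotated exons are not in the counts. No annotated gene overlaps any of the 3.

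Total counts ran from 5350165 to 12256492 per library, and 15593 to 16881 genes had a count in each. Mitochondrial transcripts took 4.72%, 5.58% and 3.59% of the counts on the control sides of embryos 1, 2 and 3. On the TGFB1 morpholino sides they took 11.9%, 7.20% and 4.90%, a higher share in each embryo. W-linked genes reached 18.3 and 24.0 CPM in the libraries of embryo 1, against 2346 to 2756 CPM in those of embryos 2 and 3. The neural crest label of the samples was not checked. The 3 genes had counts in all 6 libraries, but they were chosen beforehand, and most tested genes had counts too, so this is no check. Markers of other cell types in the neural fold were not analysed here, as their identifiers are not paired with symbols.

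All 3 genes were lower on the TGFB1 morpholino side of every embryo, to between 15.7% and 25.0% of the control side. These differences are the values for which the genes were chosen, so they are given as a description, and no test of them is used as support. In bulk RNA from a neural fold, fewer cells of the neural crest and less transcript per cell cannot be told apart.

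SOX9 showed the deepest drop. Its level on the control side was 95.3 CPM (read counts scaled to library size) in embryo 1, 33.5 in embryo 2 and 110.1 in embryo 3. On the TGFB1 morpholino side it was 15.0, 5.47 and 18.3 CPM in the same embryos. The highest TGFB1 morpholino value lay below the lowest control, so the groups did not overlap, which held in this direction for 14.4% of all tested genes. Within the embryos SOX9 was left at 15.7%, 16.4% and 16.6% of the control side. The fitted log2 fold change was -2.62 (SE 0.15, 3 pairs), a 6.17-fold lower level. A lower log2 fold change was found for 10 of the 12736 genes tested, a rank by the value for which SOX9 was chosen.

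SNAI2 had the highest levels. It stood at 212.4, 88.3 and 240.7 CPM on the control sides of embryos 1, 2 and 3. On the TGFB1 morpholino sides it stood at 46.6, 19.6 and 55.6 CPM. Again the groups did not overlap, and embryo 2 was the lowest on either side. The share of the control level that remained was 21.9%, 22.2% and 23.1%. The log2 fold change was -2.16 (SE 0.13), or 4.46-fold lower, and 40 of the tested genes had a lower one.

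FOXD3 went from 151.2, 44.6 and 119.5 CPM on the control sides of embryos 1, 2 and 3 to 37.8, 8.57 and 20.5 CPM on the TGFB1 morpholino sides. Here the gap between the groups was narrow, from 37.8 CPM in the TGFB1 morpholino library of embryo 1 to 44.6 CPM in the control of embryo 2. The comparison within embryos separates these sides more clearly, with 25.0%, 19.2% and 17.2% of the control level left. The log2 fold change was -2.29 (SE 0.15), or 4.89-fold lower, and 26 of the tested genes had a lower one.

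**Figure D1:**
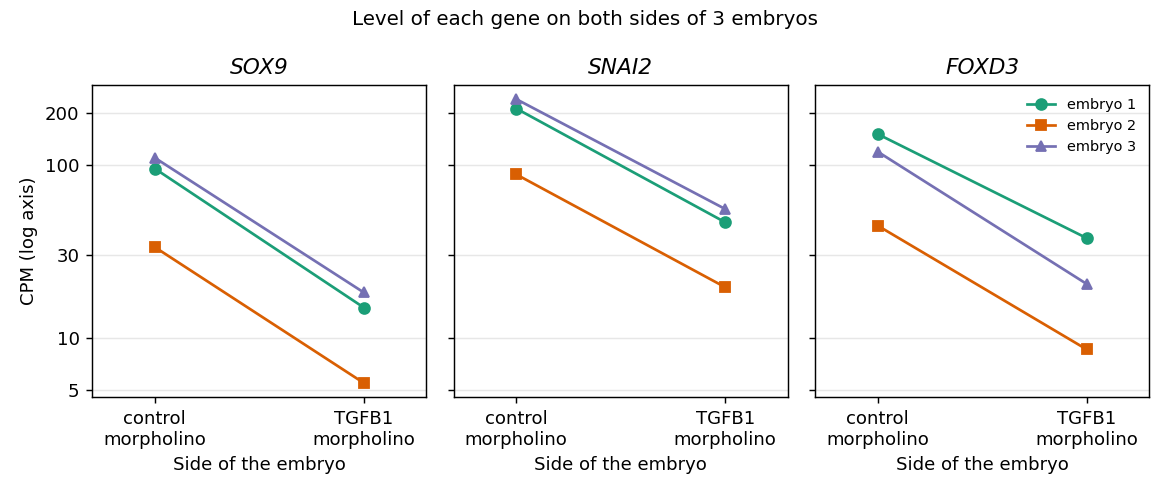
CPM of SOX9, SNAI2 and FOXD3 (log axis) on the control and the TGFB1 morpholino side, with 1 point per library and a line joining the sides of 1 embryo. The lines of SOX9 and of SNAI2 run nearly parallel, with embryo 2 lowest on both sides, while the line of embryo 1 for FOXD3 falls less steeply, to 25.0% against 17.2% in embryo 3.

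As background, edgeR's quasi-likelihood test, with the embryo as a block and a false discovery rate of 0.05, called 8.81% of all tested genes lower on the TGFB1 morpholino side and 7.15% higher. All 3 genes passed the filter on low counts and lie among those called lower, which their choice had fixed, so nothing is read from it. A drop of at least 2-fold in all 3 embryos, which the 3 genes also showed, was found for 1.41%. Over all genes tested, the log2 fold change had a median of 0.0032 and a first percentile of -1.61. Without the replicate block the calls numbered 270 higher and 427 lower in place of 911 and 1122, and the SEs of the log2 fold changes of SOX9, SNAI2 and FOXD3 grew to 0.48, 0.41 and 0.51. With mitochondrial genes left out of the library sizes, the log2 fold changes were -2.62, -2.16 and -2.29.

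**Figure D2:**
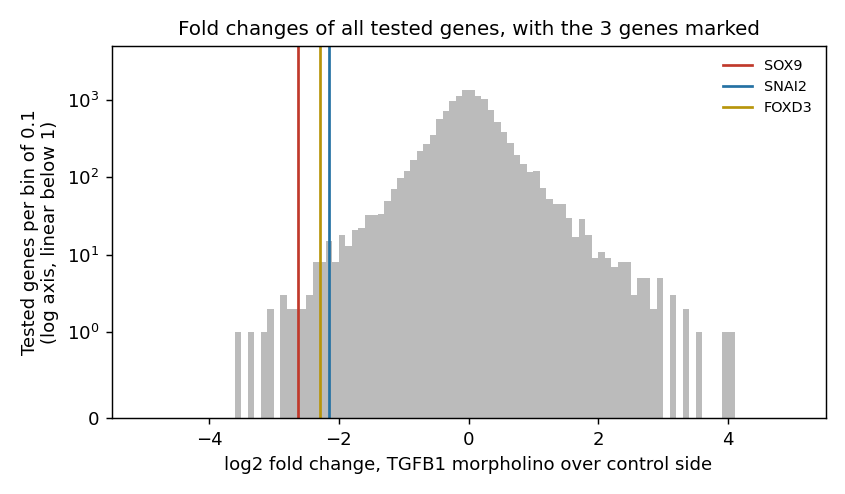
Distribution of the log2 fold change (TGFB1 morpholino over control side) over the 12736 tested genes, in bins of 0.1 on a log axis that is linear below 1. The vertical lines mark SOX9 at -2.62, FOXD3 at -2.29 and SNAI2 at -2.16, all in the thin lower tail.

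The size of the drop was nearly the same in every embryo for SOX9 and SNAI2, and less so for FOXD3. The within-embryo log2 ratios had an SD over the 3 embryos of 0.049 for SOX9 and 0.037 for SNAI2. Among the 10275 tested genes that averaged 5 CPM or more, the median SD was 0.24. Of those genes 3.27% varied less than SOX9, and 1.82% varied less than SNAI2. The genes were chosen by their side difference, and an even drop favours such a choice, so these ranks are not evidence. The genes compared were also not matched for level, and lower counts widen this SD. Counting error alone gives a single log2 ratio of SOX9 a standard error of 0.13 to 0.22, and one of SNAI2 0.075 to 0.12, so both genes varied between embryos by less than the counts can resolve. FOXD3, with an SD of 0.27, was near the middle of the distribution, as 58.5% of genes varied less.

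For FOXD3 the remaining share was 25.0% in embryo 1 (95% interval 22.2% to 28.0%), 19.2% in embryo 2 (15.0% to 24.4%) and 17.2% in embryo 3 (14.3% to 20.5%). These exact intervals cover counting error only. That of embryo 1 lay wholly above that of embryo 3, while embryo 2 overlapped both. SOX9 had intervals of 13.0% to 18.7%, 12.0% to 22.0% and 13.7% to 20.0%, all overlapping. Those of SNAI2, of 19.8% to 24.3%, 18.9% to 26.1% and 20.7% to 25.8%, overlapped too. With 1 library per embryo and side, a difference of response between embryos could not be tested against biological spread. The TGFB1 morpholino library of embryo 1 also had the highest mitochondrial share, 11.9%, and embryo 1 was the one nearly without W-linked counts. The part of either in the FOXD3 value was not tested.

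**Figure D3:**
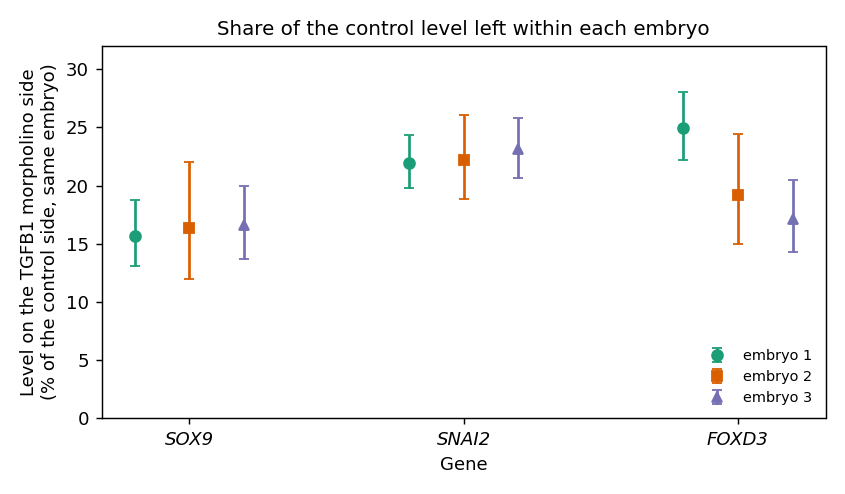
Level on the TGFB1 morpholino side as a percentage of the control side of the same embryo, with 1 point per embryo and 95% exact intervals that cover counting error only. The points of SOX9 lie at 15.7% to 16.6% and those of SNAI2 at 21.9% to 23.1%, while those of FOXD3 spread from 17.2% to 25.0%.

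The 3 genes can be set against each other only per length. Per kilobase of annotated exon, the control sides held 232.3 ± 104.4 CPM of SNAI2, 88.5 ± 46.1 CPM of FOXD3 and 43.5 ± 22.2 CPM of SOX9 (SD, n = 3). The TGFB1 morpholino sides held 52.3 ± 24.1, 18.8 ± 12.4 and 7.04 ± 3.63 CPM per kilobase. The SDs of neighbouring genes in this order overlap because the embryos differ, but the order SNAI2, FOXD3, SOX9 held within each of the 6 libraries. Because the annotated exons may leave out untranslated sequence to a different extent in each gene, these ratios between genes depend on the annotation.

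The ratio of SNAI2 to SOX9, per kilobase, was 5.25, 6.22 and 5.16 on the control sides of embryos 1, 2 and 3 and 7.35, 8.45 and 7.17 on the TGFB1 morpholino sides. It was thus higher on the TGFB1 morpholino side of each embryo, by 1.40-fold (95% counting interval 1.14 to 1.73), 1.36-fold (0.96 to 1.94) and 1.39-fold (1.12 to 1.74). SOX9 lost a larger share of its level than SNAI2 in all 3 embryos, although the counts of embryo 2 alone do not resolve it. Annotation length cancels from this change. The ratio of FOXD3 to SOX9 was 1.59-fold higher on that side in embryo 1 (1.28 to 1.98), while the changes of 1.17-fold (0.79 to 1.75) and 1.03-fold (0.80 to 1.34) in embryos 2 and 3 included no change. The ratio of SNAI2 to FOXD3 had no common direction, at 0.88, 1.16 and 1.35-fold. All these intervals cover counting error only, so they do not resolve a difference between embryos. The TGFB1 morpholino library of embryo 1 also stood furthest from the others of its group over all tested genes.

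The control level itself varied between embryos about as widely in all 3 genes. Embryo 2 was the lowest, and the highest control stood above it by 3.29-fold for SOX9, 2.73-fold for SNAI2 and 3.39-fold for FOXD3. Embryo 3 was the highest for SOX9 and SNAI2, 1.15-fold and 1.13-fold above embryo 1. For FOXD3 the highest was embryo 1, and embryo 3 reached 0.79-fold of it. Over all tested genes the median ratio of the highest to the lowest control was 1.31, and 12.4% of genes reached 2-fold.

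The TGFB1 morpholino sides repeated this order in each gene. There the highest library stood above embryo 2 by 3.34-fold for SOX9, 2.84-fold for SNAI2 and 4.41-fold for FOXD3. A 2-fold spread on that side was found for 16.5% of tested genes. For FOXD3 embryo 3 fell further behind embryo 1, at 0.54-fold. Embryo 2 was the lowest on both sides in 14.5% of genes, and at least 2-fold below both other embryos on both sides in 26 genes (0.204%), 3 of which are SOX9, SNAI2 and FOXD3. That rule follows the pattern of the 3 genes themselves, so nothing is read from their place among the 26.

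**Figure D4:**
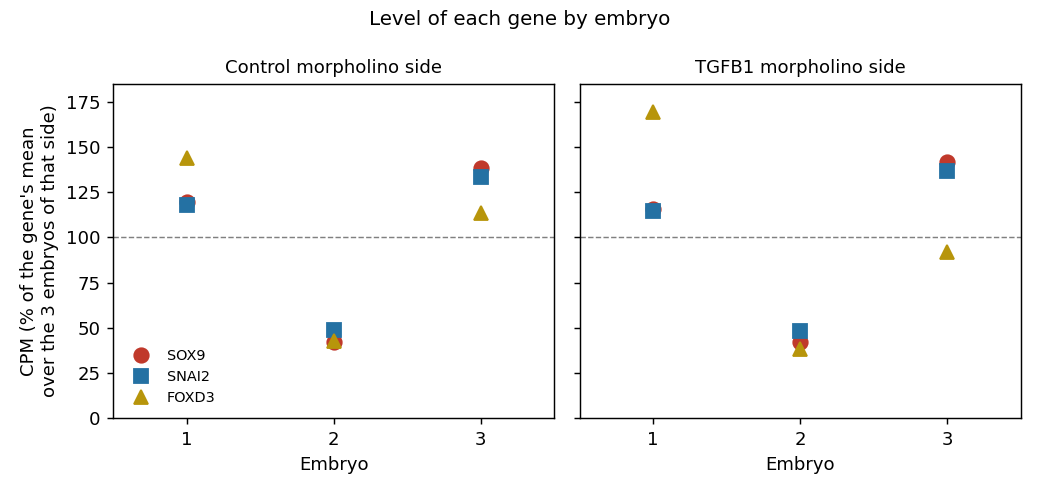
CPM of each gene in each embryo as a percentage of its mean over the 3 embryos, shown separately for the control and the TGFB1 morpholino sides, with 1 point per library and the mean as a dashed line. All 3 genes lie at 38.5% to 48.9% in embryo 2 on both sides, SOX9 and SNAI2 nearly coincide in every embryo, and FOXD3 is highest in embryo 1.

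A test of embryo differences that takes both sides together called 3.10% of tested genes (edgeR's quasi-likelihood F test over the pair terms, false discovery rate 0.05), and all 3 genes were among them. The genes were chosen with differences between these embryos in view, so this count is a description and not evidence. The spread of the controls rests mainly on embryo 2. In the test over both sides, the 3 genes missed the threshold without embryo 2 and passed it without embryo 1 or embryo 3. Embryo 2 was singled out from these same values, so these outcomes too are a description and not evidence. Without embryo 2 the ratio of the remaining controls was 1.15 for SOX9, 1.13 for SNAI2 and 1.27 for FOXD3. On the TGFB1 morpholino side, however, embryo 3 still stood at 0.54-fold of embryo 1 for FOXD3. Embryo 2 was also set beside the others in depth, W-linked level and mitochondrial share. The libraries of embryo 2, with 8484444 and 9659114 counts, were deeper than those of embryo 3, with 5350165 and 7870067. Those of embryo 1 held 12256492 on the control and 9061190 on the TGFB1 morpholino side. The W-linked level of embryo 2, 2346 and 2756 CPM, was near the 2395 and 2604 CPM of embryo 3. The control library of embryo 2 had the highest mitochondrial share of the controls, 5.58% against 4.72% and 3.59% in embryos 1 and 3. On the TGFB1 morpholino side its share of 7.20% lay between 11.9% in embryo 1 and 4.90% in embryo 3. The part of depth, sex or mitochondrial share in the level of embryo 2 was not tested.

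Across the 6 libraries the log2 CPM of SOX9 and SNAI2 had a Pearson r of 0.9998, and SNAI2 ranked 1 in likeness to SOX9 among genes that averaged 5 CPM or more. FOXD3 had an r of 0.96 with each of the others, and it ranked 89 in likeness to SOX9 when SNAI2 was left out of the ranking. Such values are descriptive, since the libraries share embryos and sides. The side difference for which the 3 genes were chosen also enters each r and rank, so these are not evidence. An r above 0.9 was reached with SOX9 by 389 of 10272 genes, with SNAI2 by 376 and with FOXD3 by 359. Outside the 3, the gene most like both SOX9 and SNAI2 (r of 0.998 with each) was ENSGALG00000012715.6, with 13 exon records between 61960517 and 62027180 of chromosome 2 (plus strand). Its levels were low and its drop smaller, from 8.47, 5.52 and 9.27 CPM on the control sides of embryos 1, 2 and 3 to 4.15, 2.89 and 4.70 CPM. The gene most like FOXD3 was ENSGALG00000014681.6 (r of 0.9994), with 14 exon records between 57335212 and 57363032 of chromosome Z (plus strand). It went from 24.6, 9.63 and 21.9 CPM to 8.63, 2.48 and 5.36 CPM in embryos 1, 2 and 3, with embryo 1 highest on both sides. Z-linked genes as a whole took 3.70% and 3.61% of the counts in embryo 1, against 2.41% to 2.52% in embryos 2 and 3, and the part of this in the likeness to FOXD3 was not tested.

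The nearest tested genes on either side of the 3 moved less, with log2 fold changes of -0.55 to 0.43. The nearest tested gene to SOX9 ends 1.53 kb before it on the opposite strand. That gene stood at 5.87, 4.34 and 10.4 CPM on the control sides and at 10.2, 6.71 and 9.54 CPM on the TGFB1 morpholino sides, or 0.43 on the log2 scale (SE 0.26, adjusted p = 0.268 by edgeR). On the other side of SOX9 the nearest tested gene lies 66.3 kb away, with a log2 fold change of 0.27 (SE 0.15). The nearest tested gene to FOXD3, 6.03 kb after it, had a log2 fold change of 0.062 (SE 0.15). That before FOXD3, 163.2 kb away, had -0.55 (SE 0.20). SNAI2 had its nearest tested genes 363.2 kb before and 62.6 kb after it, at 0.00068 (SE 0.14) and -0.38 (SE 0.51). The gene after SNAI2 held only 0.52 to 4.48 CPM, so its change is poorly resolved. Around SNAI2 and FOXD3, annotated genes that were not tested lie nearer. Of the 10 nearest tested genes, 5 on each side, 3 were called lower around SOX9, 1 around SNAI2 and 2 around FOXD3, where 1 was called higher. Over all tested genes, 8.81% were called lower and 7.15% higher, and counts out of 10 are too small to be read against these shares. The lowest log2 fold change among these neighbours was -2.06 around SOX9, -0.60 around SNAI2 and -1.06 around FOXD3.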

How the data were processed

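The authors deposited whole-number read counts per gene for 6 libraries, with exon positions and merged exon lengths. The submitters' processing notes name cutadapt, HISAT2, featureCounts and galGal6. Not given in the sources used here are their versions, the annotation release and whether counting used strand. Libraries were poly(A) selected and strand-specific, per the labels' protocols. Groups came from the genotype label and embryo numbers from the titles. The numbers pair the libraries because, per the labels' protocols, the sides were dissected from 1 embryo. Deviations of same-numbered libraries from their groups correlated by 0.49, 0.52 and 0.36 over tested genes in pairs 1, 2 and 3. Without Z-linked, W-linked and mitochondrial genes these values were 0.26, 0.46 and 0.29. No replicates agreed within sampling noise (chi-square over degrees of freedom of 12.0 or more). The TGFB1 morpholino library of embryo 1 stood furthest apart, at 60.5 and 64.0 against embryos 2 and 3. All other comparisons within a group gave 12.0 to 16.4.

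The analysis used edgeR 4.0.16 in R 4.3.3. The 12736 genes passing filterByExpr were scaled by TMM (factors of 0.973 to 1.01) and fitted by quasi-likelihood with embryo and side as terms. Benjamini-Hochberg adjustment ran over all tested genes. Standard errors are the log2 fold change over the root of F. The p-values set differences against the variation left in the 3 pairs once both terms are fitted. For each gene, edgeR draws the estimate of this variation towards that of all tested genes (mean prior degrees of freedom of 10.99). CPM of single genes use TMM-scaled library sizes, while the summed CPM of W-linked genes use total counts. Correlations and SDs of log2 ratios use a prior count of 2, and counts of genes past 2-fold or without overlap add 0.5 to each count. Intervals of 95% within a pair are exact and conditional on the counts. The script was tested on simulated data. The genes named beside the 3 are those with the highest Pearson r with one of them among tested genes that averaged 5 CPM or more, at most 2 that fell. The members and lists were chosen with earlier results of these data known. The gene and marker lists and the promoter and protein sequences planned for were not analysed here, as identifiers could not be paired with symbols and no sequence tables were used. Alternatives were other scalings, DESeq2 1.42.0, limma-voom (limma 3.58.1), other filters, no replicate block and leaving out each embryo.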

Additional observations from a re-analysis of the deposited data

How the results depend on the processing

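SOX9, SNAI2 and FOXD3, which were chosen for their side difference, kept its direction in every alternative run, which is no independent support. Their log2 fold changes lay between -2.64 and -2.61, -2.17 and -2.14, and -2.31 and -2.24 when all embryos were used. When each embryo was left out in turn, they lay between -2.66 and -2.60, -2.19 and -2.14, and -2.47 and -2.18. The numbers of all genes called moved more. Calls numbered 270 higher and 427 lower with no replicate block, DESeq2 called 577 higher, and a false discovery rate of 0.1 gave 1421 higher. Leaving out each embryo gave 450 to 940 genes higher and 670 to 1313 lower, fewest without embryo 2. Embryo differences were called in 1358 genes with no filter on low counts, against 395, and in 366 to 670 when each embryo was left out, most without embryo 1. The ratio of the highest to the lowest control, with an embryo left out, ranged from 1.15 to 3.29 for SOX9, from 1.13 to 2.73 for SNAI2 and from 1.27 to 3.39 for FOXD3, and the low end was without embryo 2 in each case. Control levels per kilobase were 43.5 CPM for SOX9, 232.3 for SNAI2 and 88.5 for FOXD3 in the main run. Other scalings gave 43.5 to 46.4, 232.7 to 247.9 and 88.6 to 94.5. With an embryo left out they ranged from 35.1 to 56.1, 193.5 to 291.6 and 69.1 to 113.9. These levels were highest without embryo 2 in each gene. Leaving out an embryo for embryo differences and control levels was added after the data were seen. The cause of these changes was not tested. The smallest count of a member was 53, for SOX9 on the TGFB1 morpholino side of embryo 2, which limits its ratio there to 12.0% to 22.0% of the control.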
